A study of Mus musculus with 31 samples.

Results

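The 90 genes described here encode the subunits of the mitochondrial respiratory chain and ATP synthase that are made from nuclear DNA, together with the complex I assembly factors that share their names. They were chosen by name: the symbol starts with Nduf, Uqcr or Atp5, or with Cox followed by a digit from 4 to 8, or is Sdha, Sdhb, Sdhc or Sdhd. Of 99 matching names, 7 were pseudogenes by name and were left out, and Cox7b2 (1 to 13 counts) and Cox8c (0 counts in every library) missed the requirement of 10 or more counts in at least 13 libraries. The remaining 90 of 48795 genes in the table comprise 36 subunits of complex I, 8 complex I assembly factors, 4 subunits of complex II, 8 of complex III, 18 of complex IV and 16 of complex V. All 90 are annotated as protein coding, 87 on autosomes and 3 on the X chromosome, and 89 reached 10 counts in every library (Cox8b did in 30 of 31).

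Total RNA from homogenized mouse brain was sequenced in 31 libraries, 13 from controls and 18 from mice exposed during development to deltamethrin, an insecticide of the pyrethroid class whose target is the voltage-gated sodium channel. The study asked how this exposure alters transcription in the brain. Strain, genotype, sex, litter, age, dose, time of collection and batch are not given in the labels, and neither is the treatment of the controls. The labels do not say that each library comes from a different animal, so p-values measure the spread between these libraries.

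Oxidative phosphorylation takes electrons from NADH (complex I) and from succinate (complex II), passes them through ubiquinone to complex III and through cytochrome c to complex IV, where oxygen is reduced, and uses the proton gradient made on the way to drive ATP synthase (complex V). Complexes I, III, IV and V are built from proteins of both genomes: the mitochondrial genome encodes a few membrane-embedded core subunits, and nuclear genes encode the rest, while complex II is entirely nuclear. Neurons depend heavily on this pathway for the ATP that ion pumps consume, and several subunits have isoforms used mainly by heart and skeletal muscle or by testis. Nuclear respiratory factor 1 (NRF1), the ETS family factor GABP (also called NRF2) and YY1 are classical regulators of these promoters.

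Library totals ranged from 17570311 to 38680621 counts, with a median of 30662621. Control replicate 2 stood apart: it had the lowest total, 40.2% of its counts were mitochondrial ribosomal RNA (mt-Rnr1 and mt-Rnr2) against 7.32% to 27.4% in the other 30 libraries, and its scaling factor was the lowest at 0.613. Many values below depend on it, and most of these are given without it as well. Markers of neurons, astrocytes, oligodendrocytes and microglia were all detected in every library, as the brain label implies.

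The 5 promoters below frame the results on covariation: Ndufa7, Ndufs5 and Cox6b1 followed the mean of the other genes most closely across libraries, while Sdha and Atp5b, which have longer transcripts, did not follow it. Each sequence is the 250 bases before the annotated transcription start, 5′ to 3′ on the gene's strand, taken from RefSeq on GRCm38.p6. Capitals mark matches on either strand to the NRF1 motif (GCGCA, any base, then GCGC) or to the ETS motif CCGGAAG. Ndufa7 lies at chr17:33824322-33824571 (plus strand), Ndufs5 at chr4:123718187-123718436 (minus), Cox6b1 at chr7:30626115-30626364 (minus), Sdha at chr13:74350241-74350490 (minus) and Atp5b at chr10:128083057-128083306 (plus).
Ndufa7: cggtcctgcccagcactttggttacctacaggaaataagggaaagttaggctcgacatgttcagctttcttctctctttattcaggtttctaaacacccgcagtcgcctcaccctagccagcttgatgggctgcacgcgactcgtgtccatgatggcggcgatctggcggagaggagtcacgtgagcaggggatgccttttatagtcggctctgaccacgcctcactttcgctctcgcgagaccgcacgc
Ndufs5: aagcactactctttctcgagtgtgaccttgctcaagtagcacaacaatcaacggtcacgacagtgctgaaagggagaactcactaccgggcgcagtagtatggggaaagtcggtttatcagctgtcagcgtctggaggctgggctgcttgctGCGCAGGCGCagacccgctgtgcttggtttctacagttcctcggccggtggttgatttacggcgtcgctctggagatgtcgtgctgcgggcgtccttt
Cox6b1: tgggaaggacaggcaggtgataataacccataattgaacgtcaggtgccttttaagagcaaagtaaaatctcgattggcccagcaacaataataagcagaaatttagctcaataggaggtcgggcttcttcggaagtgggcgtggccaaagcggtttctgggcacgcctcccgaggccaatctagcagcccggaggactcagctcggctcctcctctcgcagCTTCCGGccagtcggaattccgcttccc
Sdha: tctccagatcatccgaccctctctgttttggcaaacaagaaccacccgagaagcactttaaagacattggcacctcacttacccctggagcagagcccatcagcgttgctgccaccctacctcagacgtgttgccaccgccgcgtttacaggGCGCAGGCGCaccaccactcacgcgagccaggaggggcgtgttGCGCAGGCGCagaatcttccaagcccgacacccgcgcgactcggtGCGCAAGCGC
Atp5b: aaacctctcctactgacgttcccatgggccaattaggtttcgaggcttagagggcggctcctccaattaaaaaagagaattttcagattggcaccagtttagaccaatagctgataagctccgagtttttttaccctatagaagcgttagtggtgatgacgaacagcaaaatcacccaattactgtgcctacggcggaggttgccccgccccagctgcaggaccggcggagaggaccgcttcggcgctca

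The Sdha window holds 3 NRF1 matches, Ndufs5 holds 1 NRF1 match and Cox6b1 holds 1 ETS match (as its reverse complement), whereas Ndufa7 and Atp5b hold none of these letters in the window. By the GENCODE coordinates the last Sdha match lies inside the gene. In windows from 250 bases before to 50 bases after each start, 75 of the 90 genes had at least 1 RefSeq window, 80 windows in all. The NRF1 motif was found in 25% of these 80 windows and in 4.60% of all 32851 windows. The ETS motif was found in 22.5% against 8.86%, and the YY1 motif AAGATGGCG in 10% against 1.40%. At least 1 of the 3 motifs was found in 48.75% of the genes' windows and in 13.6% of all windows, and TATAAA in 8.75% against 13.6%. Both strands were searched, and none of the 4 motifs contains another. These are matches of letters, and binding was not measured.

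Levels are given as CPM (counts scaled to a common library size, with TMM factors), divided by the length of the principal transcript when genes are compared with each other. By this measure complexes III, IV and V had median levels of 170, 172 and 162 CPM per kilobase over their genes, complex I 86.9 and complex II 74.1, and the complex I assembly factors 13.4. The complex IV genes include 6 isoforms known mainly from other tissues, with a median of 2.64. Its other 12 genes had a median of 357. The most abundant gene of all was Cox4i1, the ubiquitous isoform of complex IV subunit 4, at 930 ± 253 CPM per kilobase (SD, n = 31). The lowest was its partner Cox4i2, at 1.61 ± 0.323. Atp5b, the catalytic beta subunit of ATP synthase, stood highest in complex V at 447 ± 50.03, and Atp5s, a coupling factor also called factor B, lowest at 5.82 ± 0.717. In complex III the highest was Uqcrq, a small subunit, at 372 ± 125, and the lowest Uqcrfs1, the Rieske iron-sulfur protein, at 56.7 ± 5.33. Complex I ran from Ndufab1, the mitochondrial acyl carrier protein, at 29.1 ± 5.40 to the accessory subunit Ndufb9 at 270 ± 78.0. Its assembly factors ran from Ndufaf4 at 5.11 ± 0.669 to Ndufaf5 at 26.4 ± 5.85. For 5 genes (Ndufab1, Ndufb2, Uqcrq, Atp5g1 and Atp5g2) the annotation offers principal transcripts that differ over 1.5-fold in length, and the shortest was used, so these levels per length are uncertain.

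**Figure D1:**
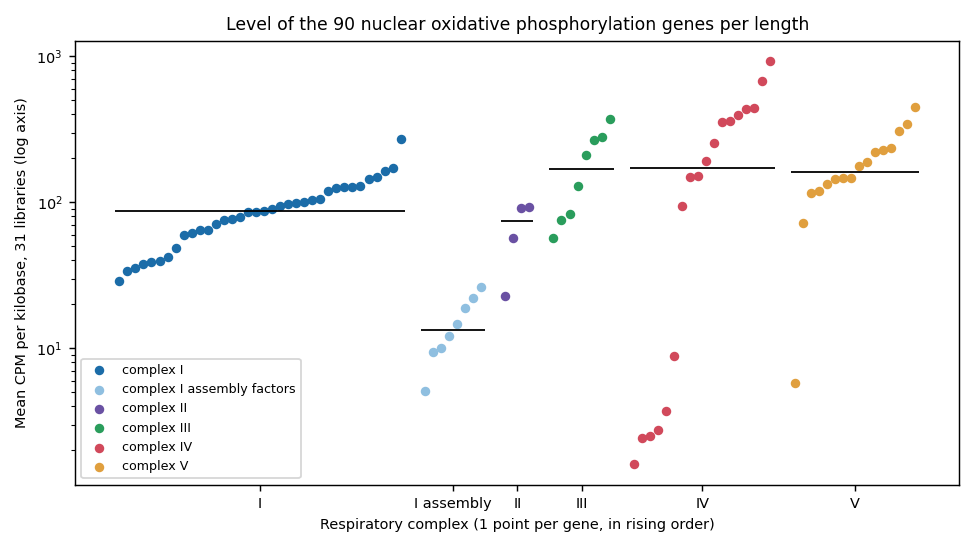
Mean level of each of the 90 genes over 31 libraries in CPM per kilobase of principal transcript (log axis), in rising order within each respiratory complex; horizontal lines are the medians of the complexes. Most genes lie between 20 and 500, while 6 complex IV isoforms, most of the assembly factors and Atp5s lie lower.

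Compared between groups, none of the 90 genes passed an adjusted p-value of 0.05 in edgeR's quasi-likelihood test, and neither did any of the 19529 genes tested (0%). The smallest adjusted p-value among the 90 genes was 0.813. By limma voom and by DESeq2 the count was also 0. At an unadjusted p-value under 0.05, 6 of the 90 genes (6.67%) had lower values in deltamethrin and 0 had higher values, against 2.37% and 2% of all genes tested (4.37% in either direction). The same count was 7 by limma voom and 6 by DESeq2, for which the share over all genes is not given. These 6 are Ndufaf3, Sdhb, Cox8b, Ndufs8, Ndufa11 and Cox5b. In no gene of the 90, and in none of the 19529 tested (0%), were the CPM ranges of the groups free of overlap.

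The fold changes were small and mostly of one sign. Of the 90 log2 fold changes (deltamethrin over control), 85 were below 0, against 49.5% of all genes, and their median was -0.18 against 0.0014 over all genes. By complex the medians were -0.18 for complex I, -0.091 for its assembly factors, -0.075 for complex II, -0.15 for complex III, -0.22 for complex IV and -0.15 for complex V. Without control replicate 2 the median of the 90 genes was -0.096, with 86 below 0 (50.3% of all genes), and 0 of the 90 reached an unadjusted p-value under 0.05, against 3.64% of all genes (1.89% with lower and 1.75% with higher values). The medians by complex were then -0.11 for complex I, -0.050 for its assembly factors, -0.067 for complex II, -0.085 for complex III, -0.11 for complex IV and -0.091 for complex V. These genes vary together across libraries, as described below, so the count of negative signs does not stand for 90 separate observations.

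**Figure D2:**
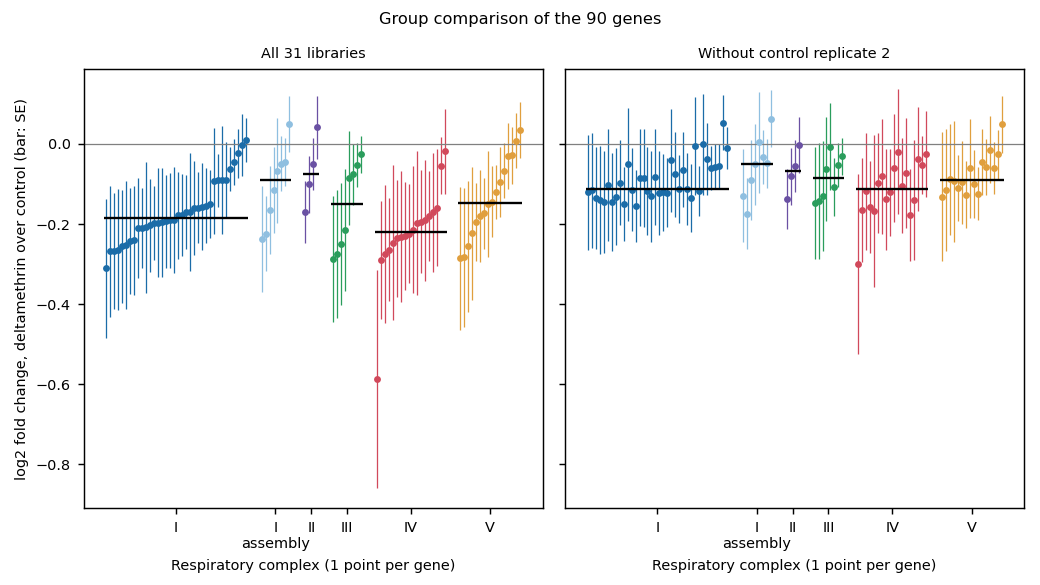
Log2 fold change of each gene, deltamethrin over control, with its standard error as a vertical bar, by respiratory complex; black lines are medians, and the right panel repeats the fit without control replicate 2. Nearly all points lie below 0 in both panels, with most bars of the right panel reaching 0 or close to it.

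In complex I, the 7 nuclear core subunits, which hold the redox centres, had a median log2 fold change of -0.093, and the 29 accessory subunits, which surround the core, -0.19. These medians were -0.12 for the core and -0.11 for the accessory subunits without control replicate 2. Ndufs8 (chr19:3908863-3912774, minus strand), a core subunit that binds iron-sulfur clusters, was measured at 53.3 to 93.2 CPM in control (median 65.4) and at 42.6 to 81.6 in deltamethrin (median 57.9). Its control and deltamethrin ranges overlap over most of their length, with 14 of 18 deltamethrin libraries below the control median. The log2 fold change was -0.20 ± 0.09 (SE), with p = 0.0409 unadjusted and 0.813 adjusted by edgeR, and -0.15 with an unadjusted p of 0.0942 without control replicate 2. Ndufa11 (chr17:56717767-56722141, plus strand), an accessory membrane subunit, was at 46.6 to 88.8 CPM in control (median 55.6) and at 34.6 to 68.9 in deltamethrin (median 50.03), a log2 fold change of -0.21 ± 0.10 with an unadjusted p of 0.0424. In 13 of 18 deltamethrin libraries Ndufa11 was below the control median, and both its extremes are libraries that were extreme for most genes, control replicate 2 and deltamethrin replicate 1. Without the former the log2 fold change of Ndufa11 was -0.15 (unadjusted p = 0.116). Ndufs1, the largest core subunit, which carries iron-sulfur clusters, was measured at nearly the same level: 82.4 to 120 CPM in control (median 101) and 84.8 to 113 in deltamethrin (median 103), with a log2 fold change of 0.010 ± 0.05, or -0.011 without control replicate 2. Ndufb9, the most abundant per length, was at 138 to 382 CPM in control (median 189) and 103 to 281 in deltamethrin (median 176), a log2 fold change of -0.19 ± 0.13 (unadjusted p = 0.163) that was -0.083 without control replicate 2. The 2 complex I genes with the closest covariation with the rest had log2 fold changes of -0.24 ± 0.14 (Ndufa7) and -0.19 ± 0.12 (Ndufs5), and of -0.13 and -0.12 without that library.

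Among the complex I assembly factors, which help to build the complex and are not part of the finished enzyme, Ndufaf3 (chr9:108565537-108567434, minus strand) had the smallest p-value of all 90 genes. It was at 29.0 to 52.0 CPM in control (median 33.2) and at 21.5 to 42.1 in deltamethrin (median 30.8). The groups overlap, with 13 of 18 deltamethrin libraries below the control median. Its log2 fold change was -0.22 ± 0.09, with p = 0.022 unadjusted and 0.813 adjusted by edgeR, and -0.17 with p = 0.0575 unadjusted without control replicate 2. Ndufaf4 had the highest log2 fold change of all 90 genes, 0.05 ± 0.07 (unadjusted p = 0.484), and Ndufaf5 had -0.12 ± 0.11 (p = 0.287), or -0.051 without control replicate 2.

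Complex II oxidizes succinate and is also an enzyme of the citric acid cycle. Its 4 genes did not behave alike. Sdhb (chr4:140961203-140979193, plus strand), the iron-sulfur subunit, was at 94.4 to 143 CPM in control (median 107) and at 72.2 to 123 in deltamethrin (median 96.4). The log2 fold change was -0.17 ± 0.08, with p = 0.0347 unadjusted and 0.813 adjusted by edgeR, and 13 of 18 deltamethrin libraries lay below the control median. The value for Sdhb without control replicate 2 was -0.14 (unadjusted p = 0.0741). Sdha (chr13:74322254-74350280, minus strand), the flavoprotein that holds the succinate site, was at 174 to 307 CPM in control (median 274) and at 184 to 339 in deltamethrin (median 281), a log2 fold change of 0.04 ± 0.08 (unadjusted p = 0.599). Its lowest library was control replicate 2, which was the highest library for 66 of the 90 genes, and without which its log2 fold change was -0.0022. The membrane anchors Sdhc and Sdhd had log2 fold changes of -0.05 ± 0.06 and -0.10 ± 0.07, with medians of 74.4 and 70.7 CPM in control and 73.1 and 69.2 in deltamethrin.

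Complex III genes all had fold changes below 0 and none had an unadjusted p-value under 0.05. The small subunits were furthest from 0, led by Uqcr10 at -0.29 ± 0.16 (unadjusted p = 0.0781), or -0.15 without control replicate 2. Uqcrq was at 104 to 327 CPM in control (median 150) and at 77.3 to 225 in deltamethrin (median 132), a log2 fold change of -0.25 ± 0.15, or -0.13 without that library. The Rieske protein gene Uqcrfs1 was at 69.9 to 87.5 CPM in control (median 78.7) and 62.4 to 89.9 in deltamethrin (median 77.6), and the 2 core proteins Uqcrc1 and Uqcrc2 had log2 fold changes of -0.08 ± 0.08 and -0.03 ± 0.05.

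All 18 complex IV genes had fold changes below 0. Their median was the lowest of the complexes with all 31 libraries in the fit, but not without control replicate 2, where complexes I and IV had nearly the same median. Cox5b (chr1:36691449-36693681, plus strand), a zinc-binding subunit on the matrix side, was at 101 to 267 CPM in control (median 131) and at 65.6 to 171 in deltamethrin (median 117). With a log2 fold change of -0.26 ± 0.13 its unadjusted p was 0.0489 and its adjusted p 0.813 by edgeR. Without control replicate 2, the library with its highest value, the log2 fold change was -0.16 with an unadjusted p of 0.178. Cox4i1 was at 532 to 1296 CPM in control (median 692) and at 380 to 983 in deltamethrin (median 609), a log2 fold change of -0.19 ± 0.13. Cox8a, the ubiquitous isoform of the smallest subunit, was at 286 to 835 CPM in control (median 361) and at 191 to 543 in deltamethrin (median 314), a log2 fold change of -0.29 ± 0.15 (unadjusted p = 0.0573). Control replicate 2 was again highest for both and deltamethrin replicate 1 lowest, and without control replicate 2 the log2 fold changes were -0.10 for Cox4i1 and -0.16 for Cox8a. Cox6a1, Cox6b1, Cox7a2, Cox7b and Ndufa4, the last long counted as a complex I subunit, had log2 fold changes of -0.23, -0.22, -0.24, -0.23 and -0.19, each with an SE of 0.12 to 0.16. In the same order they were -0.14, -0.12, -0.097, -0.081 and -0.073 without control replicate 2.

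The isoforms known mainly from other tissues were present at traces. On levels per length, the lung and hypoxia isoform Cox4i2 made up a median of 0.166% of the Cox4 pair in control libraries and 0.184% in deltamethrin, and the heart and muscle isoform Cox6a2 made up 0.545% and 0.544% of the Cox6a pair. Cox8b, the heart and muscle partner of Cox8a, made up 0.372% and 0.379%. Testis-type Cox6b2 made up 1.06% and 1.05% of its pair, and Ndufa4l2, a hypoxia-induced relative of Ndufa4, 0.689% and 0.756%. Cox7a1, the heart and muscle partner of Cox7a2, was the least rare at 3.34% and 3.28%. The group medians of these shares differed by less than their ranges within a group, which for Cox7a1 ran from 2.53% to 4.37% in control and from 2.54% to 4.34% in deltamethrin. Cox8b (chr7:140898945-140900446, minus strand) had the most negative fold change of the 90 genes, -0.59 ± 0.27 (unadjusted p = 0.0383, adjusted p = 0.813 by edgeR), on 8 to 52 counts per library. It was at 0.526 to 4.83 CPM in control (median 0.870) and at 0.282 to 1.44 in deltamethrin (median 0.806). The medians nearly coincide, and the highest value comes from control replicate 2, without which the log2 fold change was -0.30 with an unadjusted p of 0.192.

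In complex V the 5 subunits of the catalytic F1 head had a median log2 fold change of -0.094, and the other 11 genes, of the membrane part, the stalk and the regulators, -0.17. Both medians moved, to -0.060 and -0.093, without control replicate 2. Atp5b was at 651 to 957 CPM in control (median 887) and at 576 to 981 in deltamethrin (median 880), a log2 fold change of -0.03 ± 0.07. Atp5a1, the alpha subunit that alternates with beta in the head, was at 431 to 660 CPM in control (median 601) and at 437 to 688 in deltamethrin (median 606), a log2 fold change of 0.01 ± 0.07. Neither fold change was further from 0 than its SE, and without control replicate 2 they were -0.060 for Atp5b and -0.026 for Atp5a1. Atp5g1, Atp5g2 and Atp5g3 encode the same mature c subunit of the rotor ring from different precursors. Per length, Atp5g3 made up a median of 40.7% of the 3 in control and 41.9% in deltamethrin, Atp5g1 33.7% and 33.3%, and Atp5g2 25.8% and 25.2%. With the longest principal transcripts instead, Atp5g1 came to 7.14% in control and Atp5g3 to 67.4%, so the order of Atp5g1 and Atp5g2 depends on which transcript the brain uses. The log2 fold changes were -0.14 ± 0.09 for Atp5g1, -0.19 ± 0.10 for Atp5g2 (unadjusted p = 0.0544, and -0.11 without control replicate 2) and -0.07 ± 0.07 for Atp5g3.

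Between libraries of the same group the genes differed more than between the groups. The summed level of the 90 genes ran from 7360 CPM in deltamethrin replicate 1 to 17480 in control replicate 2, a 2.38-fold range. In control it was 8794 to 17480 with a median of 10869, and in deltamethrin 7360 to 13554 with a median of 10054. Without control replicate 2 the control libraries ran from 8794 to 13708. The highest value was in control replicate 2 for 66 of the 90 genes, and the lowest in deltamethrin replicate 1 for 54. The median SD of log2 CPM over 31 libraries was 0.340 for these genes and 0.289 for all genes tested.

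**Figure D3:**
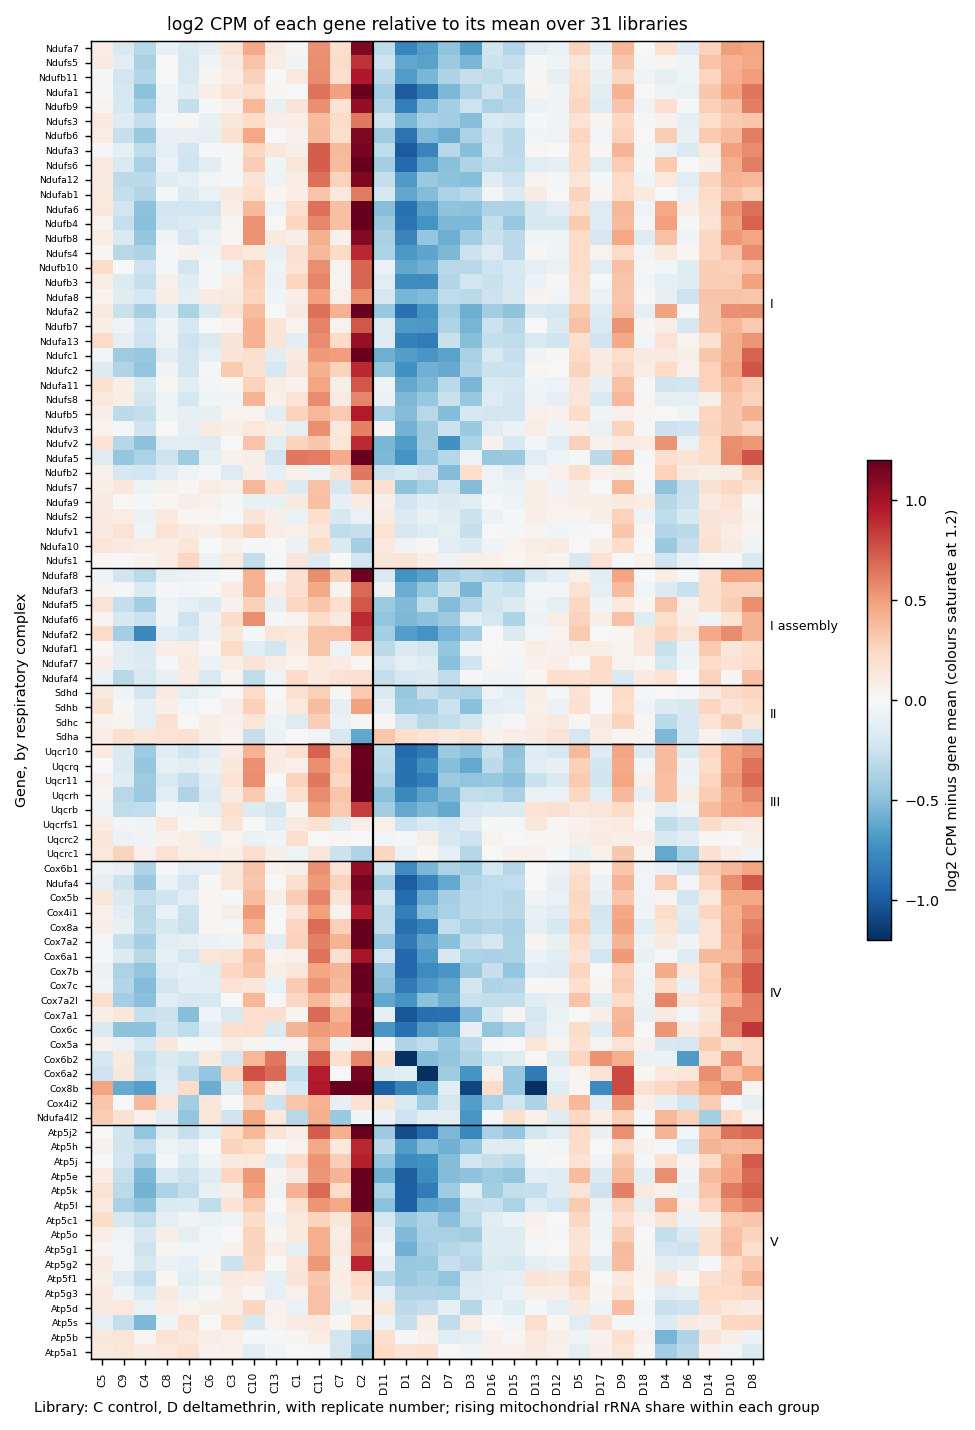
Log2 CPM of each gene minus its own mean over 31 libraries, with control and deltamethrin libraries each in order of rising mitochondrial ribosomal RNA share from left to right, and genes in each complex in order of falling correlation with the rest. Most rows share one pattern, blue at the left and red at the right of both groups, while the rows at the foot of complexes I, II, III and V, among them Ndufs1, Sdha, Uqcrc1, Atp5b and Atp5a1, are pale or run the other way.

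Most of the 90 genes followed one profile across libraries. The Pearson correlation r between a gene's log2 CPM and the mean log2 CPM of the other 89, over 31 libraries, had a median of 0.940, and 59 of the 90 had r above 0.9. Over all genes tested the median r with the mean of the 90 was -0.024, and 4.31% (841 genes) had r above 0.9. Libraries share their depth and RNA composition across all genes, so these correlations are descriptions of the libraries and carry no p-value. After subtraction of the group means 59 genes still had r above 0.9, and 55 did without control replicate 2. The highest values were those of Ndufa7 and Ndufs5 (both 0.985), accessory subunits of complex I, and Cox6b1 (0.983), a complex IV subunit facing the intermembrane space.

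A handful of genes had a negative r. These are Sdha (-0.699), Ndufs1 (-0.579), Atp5a1 (-0.536), Atp5b (-0.158), Ndufa10 (-0.0731) and Uqcrc1 (-0.0151), and without control replicate 2 only Sdha (-0.59), Ndufs1 (-0.508) and Atp5a1 (-0.393) of these remained below 0. Each encodes a large protein of its complex: the succinate-oxidizing flavoprotein, the large core subunit, the head of ATP synthase, an accessory complex I subunit and a core protein of complex III. The ratio between genes at the ends of this order varied widely. The level per length of Cox8a over that of Sdha ran from 3.23 in deltamethrin replicate 1 to 25.4 in control replicate 2, with medians of 6.99 in control and 5.85 in deltamethrin and a highest control value of 11.5 without control replicate 2. Of the promoters shown above, that of Sdha, at the bottom of this order, holds 3 NRF1 matches. At its top, Ndufa7 has none in its window, while Ndufs5, with nearly the same r, has a match. Whether r differs between genes with and without the motif was not tested.

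The order followed transcript length. Of the 56 genes with a principal transcript of up to 1000 bases, 44 had r above 0.9, against 3 of the 16 genes above 1500 bases. Across the 90 genes, which are not independent replicates, Spearman's rho between r and transcript length was -0.52. Other protein-coding genes showed the same relation to these libraries: over 15019 of them, rho between length and r with the mean of the 90 was -0.62, with a median r of 0.845 up to 600 bases and -0.580 above 4000 bases. At like lengths the median r of the 90 genes stood above that of the others in every bin that held any of them, at 0.960 against 0.845 up to 600 bases, 0.961 against 0.789 from 601 to 1000, 0.932 against 0.597 from 1001 to 1500, 0.346 against 0.232 from 1501 to 2500 and -0.028 against -0.19 from 2501 to 4000, where only 4 of the 90 lie. The profile is drawn from the 90 genes themselves, and the other genes have no part in it. The comparison therefore favours the 90 genes and does not measure covariation beyond length. The group fold change moved with length too. For the 90 genes rho between log2 fold change and length was 0.67, and the median log2 fold change was -0.25 up to 600 bases, -0.19 from 601 to 1000, -0.16 from 1001 to 1500, -0.045 from 1501 to 2500 and 0.026 above that. For other protein-coding genes of the same lengths it was -0.21, -0.14, -0.083, -0.029 and 0.0072. The rho of the 90 genes without control replicate 2 was 0.44, their medians were -0.12, -0.11, -0.062, -0.056 and -0.0063, and those of the others -0.11, -0.082, -0.064, -0.034 and -0.0054. The part of transcript length in the difference between groups was not tested.

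**Figure D4:**
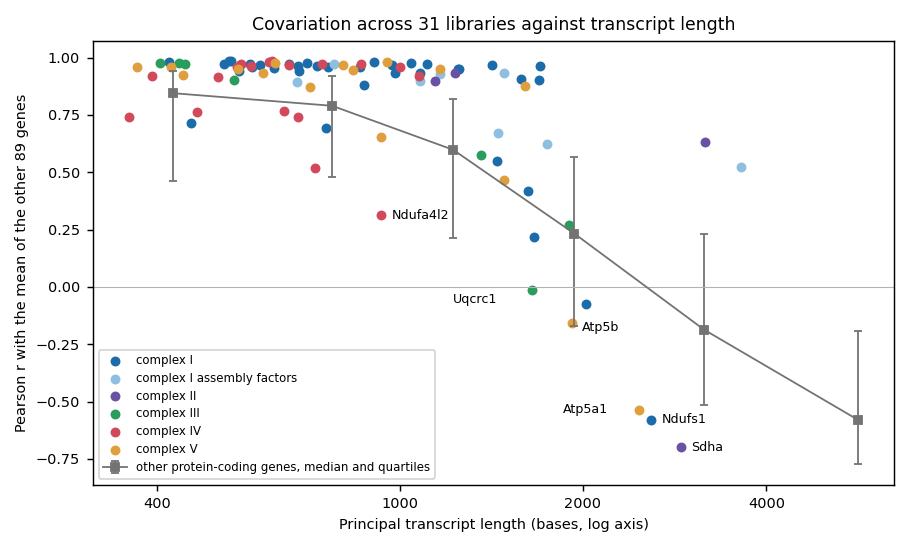
Pearson correlation of each of the 90 genes with the mean of the other 89 over 31 libraries (vertical) against principal transcript length in bases (horizontal, log axis), coloured by complex. Grey squares and bars are the medians and quartiles of other protein-coding genes in length bins; both fall with length, and Sdha, Ndufs1 and Atp5a1 lie lowest.

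The share of mitochondrial ribosomal RNA moved with the level of these genes. Over 31 libraries the mean log2 CPM of the 90 genes and the log2 share of mt-Rnr1 and mt-Rnr2 had r = 0.845 (Spearman's rho 0.805), given as a description because both are parts of the same library. Without control replicates 2 and 7, the libraries furthest from the median share, r was 0.811. Within the groups r was 0.850 in 13 control and 0.892 in 18 deltamethrin libraries. With library sizes that leave out all mitochondrial genes r was 0.856, and with the total count of a library it was -0.700 (-0.579 without control replicate 2). Median mitochondrial ribosomal RNA shares were 12.9% in control and 14.8% in deltamethrin, but the means ran the other way, at 16.2% and 14.4%. Without control replicate 2 the control libraries had a median of 12.6% and a mean of 14.1%. With the log2 share as a covariate in edgeR, the median log2 fold change of the 90 genes was -0.14, and 47 of them, all with lower values in deltamethrin, had an unadjusted p-value under 0.05, against 9.2% of all genes in that fit (5.81% with lower and 3.39% with higher values). Of the 90, 85 were again below 0, against 50.1% of all genes. No gene passed adjustment there either, the smallest adjusted p among the 90 being 0.480 by edgeR. The genes vary together across libraries, so these 47 are not 47 separate observations. The fit with this covariate was not run without control replicate 2, which has the highest share. Under this covariate the log2 fold change of Ndufaf3 was -0.20 ± 0.07 (unadjusted p = 0.00506), Ndufs6, an accessory complex I subunit named for its p-value in this fit, was at -0.20 ± 0.07 (p = 0.00491), and Sdha at 0.02 ± 0.05 (p = 0.672).

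**Figure D5:**
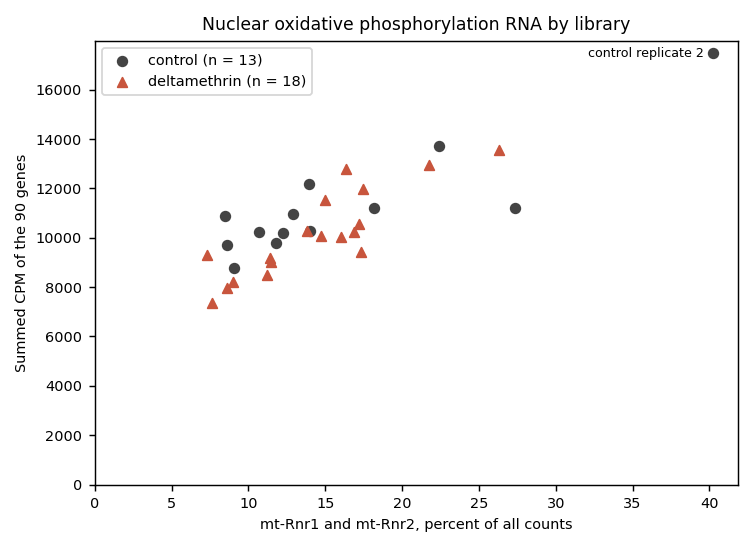
Summed CPM of the 90 genes in each library (vertical) against the percent of its counts that are mt-Rnr1 and mt-Rnr2 (horizontal); circles are 13 control and triangles 18 deltamethrin libraries. The sum rises with the share in both groups, and control replicate 2 lies far to the right at 40.2% and 17480 CPM.

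The sign of some fold changes of the subunits encoded by the mitochondrial genome depended on control replicate 2, while their median was above 0 with and without it. Their 13 messenger RNAs summed to 21501 to 58402 CPM in control (median 25007) and 20047 to 55007 in deltamethrin (median 29879), the highest control value without control replicate 2 being 44727. The ratio of this sum to the summed nuclear genes had medians of 2.46 in control (2.05 to 3.99) and 2.996 in deltamethrin (2.16 to 4.59), and its groups overlap over most of their range. Of the 13 genes, 5 had fold changes below 0 (median 0.076), but 0 did without control replicate 2 (median 0.13) and 0 with the mitochondrial ribosomal RNA covariate (median 0.16, with 4 higher at an unadjusted p under 0.05). With all libraries 2 complex I subunits had higher values at an unadjusted p under 0.05: mt-Nd5 with a log2 fold change of 0.22 ± 0.11 (p = 0.0478) and mt-Nd4 with 0.18 ± 0.09 (p = 0.0491). In edgeR both had an adjusted p of 0.813, and without control replicate 2 their unadjusted p-values were 0.0687 and 0.0656.

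The median fold changes of other genes of the pathway lay closer to 0. Of 42 further assembly factors, 39 were tested (Cox20, Sco2 and Pet117 were not), 29 had fold changes below 0 with a median of -0.057 (26 and -0.029 without control replicate 2), and 1 had an unadjusted p under 0.05, Ecsit, a complex I assembly factor, at -0.15 ± 0.06. A list of 21 genes took in electron carriers, solute carriers, neighbouring enzymes and some subunits or regulators with names outside the rule. Of these, 19 were below 0 with a median of -0.078 (16 and -0.060 without control replicate 2). The 3 with an unadjusted p under 0.05 were Cyc1, the cytochrome c1 subunit of complex III that the naming rule leaves out, at -0.17 ± 0.08, Atpif1, the inhibitor of ATP synthase, at -0.31 ± 0.15, and Dhodh, which feeds electrons to ubiquinone, at -0.14 ± 0.07. Without control replicate 2 Cyc1 was at -0.15 (p = 0.0724), Atpif1 at -0.20 (p = 0.164) and Dhodh at -0.16 (p = 0.0269), and 2 genes of the list had an unadjusted p under 0.05. Of 17 citric acid cycle genes 8 were below 0 and none had an unadjusted p under 0.05, with a median of 0.0044. The direction turned without control replicate 2, with 12 below 0, 1 of them with an unadjusted p under 0.05, and a median of -0.039; with the ribosomal RNA covariate 11 were below 0. Among 21 regulators of mitochondrial biogenesis 12 were below 0 (median -0.0089), and 2 had higher and 0 lower values at an unadjusted p under 0.05. In the fit without control replicate 2, 8 were below 0 (median 0.0072), and 1 had higher and 2 lower values at that threshold. The 2 higher genes of the fit with all libraries encode the partners of the GABP factor whose motif was searched above: Gabpb1 at 0.14 ± 0.05 (9.49 to 12.7 CPM in control, 9.56 to 12.9 in deltamethrin) and Gabpa at 0.16 ± 0.07 (10.5 to 15.3 and 11.6 to 19.8). Their unadjusted p-values without control replicate 2 were 0.00242 and 0.0598. With all libraries the adjusted p-value of each gene named here was 0.813 by edgeR.

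Markers of some cell types also varied with these genes across libraries, and no marker of any type passed adjustment between the groups. In such tissue, fewer cells of a type and less RNA per cell cannot be told apart. All 8 choroid plexus markers had fold changes below 0 (median -0.19, 3 with an unadjusted p under 0.05), with a summed level of 269 to 1298 CPM in control and 250 to 729 in deltamethrin, and their sum had r = 0.513 with the mean of the 90 genes. All 7 striatal markers (median -0.16, 597 to 1111 and 456 to 1098 CPM, r = 0.181) and all 5 erythroid markers (median -0.29, 492 to 1670 and 380 to 1242 CPM, r = 0.867) were below 0. All 6 astrocyte markers (median 0.16, 1395 to 2580 and 1346 to 4371 CPM, r = -0.850) were above 0. So were all 6 cerebellar markers, of granule and Purkinje cells (median 0.23, 1 with an unadjusted p under 0.05, 145 to 404 and 149 to 535 CPM, r = -0.484). Of 8 neuronal markers 5 were above 0 (1 with an unadjusted p under 0.05, median 0.022, 2366 to 4572 and 2970 to 4464 CPM, r = -0.757), and of 8 endothelial and mural markers 7 were (1 under 0.05, median 0.12, 138 to 229 and 145 to 264 CPM, r = -0.778). Of 6 microglial markers 4 were above 0 (1 of the other 2 under 0.05, median 0.049, 96.0 to 171 and 126 to 182 CPM, r = -0.734), and of 6 oligodendrocyte markers 2 (median -0.011, 4058 to 6021 and 4271 to 6759 CPM, r = -0.029). Without control replicate 2, 7 of 8 choroid plexus markers were below 0 (median -0.18, 1 with an unadjusted p under 0.05), as were 7 of 7 striatal (-0.16), 4 of 5 erythroid (-0.17) and 4 of 6 oligodendrocyte markers (-0.040). Of the astrocyte markers 1 of 6 was then below 0 (median 0.14), of the cerebellar markers 0 (0.21), of the endothelial and mural markers 1 of 8 (0.097), of the microglial markers 3 of 6 (0.0060) and of the neuronal markers 5 of 8 (-0.0025, 0 with an unadjusted p under 0.05), so the direction of the neuronal list turned. The highest erythroid sum in control was then 1347 CPM, and r was 0.395 for choroid plexus, 0.826 for erythroid and 0.147 for oligodendrocyte markers. These r values are those of the summed level, in which abundant markers weigh most. The median r of single markers was 0.198 for choroid plexus, 0.219 for striatum, 0.845 for erythroid and -0.770 for astrocyte markers. It was -0.423 for cerebellar, -0.682 for neuronal, -0.661 for endothelial and mural, -0.297 for microglial and -0.077 for oligodendrocyte markers. Other protein-coding genes also varied with the 90 genes by transcript length, with a median r of 0.845 up to 600 bases and -0.580 above 4000 bases. The markers were not set against genes of like length, so their r values are not measures of cell content. No marker was at 0 in any library, and the part of these cell types in the differences between groups was not tested.

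Some of these genes have processed pseudogenes with rows of their own. Ndufab1-ps had 48 to 110 counts and Atp5l2-ps 103 to 303 per library, against 672 to 1625 for Ndufab1 and 2242 to 5030 for Atp5l. How reads that match both a gene and its copies were counted is not given in the sources used here, so the levels of Ndufab1 and Atp5l are uncertain, and reads shared with copies were not measured.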

How the data were processed

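The authors deposited whole-number raw counts for Ensembl genes, not normalized, in 1 table whose 31 columns match the samples by title. Per the submitters' processing notes Trimmomatic, HISAT2, SAMtools and MultiQC were used with GRCm38; the counting tool and any use of strand are not given in the sources used here. Libraries held 17570311 to 38680621 counts, and genes varied by 20.2% between libraries of a group (edgeR's common biological coefficient of variation). The members, gene lists and tests were chosen with earlier results of these data known.

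In edgeR (version 4.0.16, under R 4.3.3), filterByExpr at a minimum count of 10 left 19529 genes, all 90 among them. The groups were compared over the whole table with TMM factors and the quasi-likelihood F-test (robust=TRUE), Benjamini-Hochberg adjusted. An SE was derived as the absolute log2 fold change over the root of F. Log2 CPM has a prior count of 2. Coordinates and transcript lengths come from GENCODE M21 (GRCm38), matched by gene ID for all 90 genes, and are 1-based. Promoter windows come from RefSeq (GRCm38.p6).

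Named genes are the members with an unadjusted p under 0.05, the highest and lowest per length in each complex, isoform sets, the 4 Sdh genes, the 3 highest and 3 lowest correlations with the other members, and up to 3 genes of each other pathway list with an unadjusted p under 0.05; other genes were named after their values were seen. Alternatives were RLE or no scaling factors, no count filter, DESeq2 (version 1.42.0), limma voom (version 3.58.1), a mitochondrial ribosomal RNA covariate, mitochondrial genes removed, and each of the 31 libraries left out. The fit was tested on simulated counts.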

Additional observations from a re-analysis of the deposited data

How the results depend on the processing

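None of the 90 genes and none of all genes tested passed an adjusted p-value of 0.05 under any of the 7 alternatives, DESeq2 and limma voom among them, or in edgeR without any 1 of the 31 libraries; the smallest adjusted p among the 90 was between 0.480 and 0.909 under the alternatives and between 0.628 and 0.982 with a library left out. The median log2 fold change of the 90 genes and of each complex stayed below 0 in all of these fits, for the 90 genes between -0.19 (limma voom) and -0.11 (no scaling factors, where all genes had a median of 0.043 and 78 of the 90 were below 0), and between -0.21 (without deltamethrin replicate 8) and -0.096 (without control replicate 2). The number of member genes with an unadjusted p-value under 0.05 was 6 and depended on the setting: it was 2 with no scaling factors, 2 with no count filter and 47 with the mitochondrial ribosomal RNA covariate. With 1 library left out it ranged from 0 to 27, all with lower values in deltamethrin. It was 0 without control replicate 2, 1 without control replicate 11 or deltamethrin replicate 1, 2 or 3, 2 without control replicate 10 or deltamethrin replicate 15 or 17, and 3 without deltamethrin replicate 7 or 16. It was 10 without control replicate 9, 15 without control replicate 4 and 19 without deltamethrin replicate 9. Leaving out deltamethrin replicate 10 gave 20 and deltamethrin replicate 8 gave 27, and the cause was not tested. With no scaling factors, 172 of the 19529 genes tested had lower and 541 higher values at that threshold. Shares over all genes are given above for the main fit, the covariate fit and the fit without control replicate 2. For the remaining fits they are not given, so those counts cannot be told apart from a shift over all genes. Of 306 fold changes of named genes under the alternatives, 303 kept their sign. The others were Atp5a1 at -0.0054 with the mitochondrial ribosomal RNA covariate, and Atp5b at 0.0040 and Ndufa4l2 at 0.018 with no scaling factors. With a library left out, 16 of 1364 values changed sign, in 4 genes near 0: Atp5a1 (-0.026 to 0.030), Ndufa4l2 (-0.051 to 0.024), Ndufs1 (-0.011 to 0.039) and Sdha (-0.0022 to 0.070). No paired analysis was possible because the labels give no replicate numbers shared between the groups; the numbers used here only name the libraries.

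The main limits are that the labels give no dose, age, sex, litter or batch to fit, that the median log2 fold change of the 90 genes goes from -0.18 to -0.096 without control replicate 2, and that Cox8b, Cox4i2 and Cox6a2 rest on as few as 8, 14 and 12 counts in a library.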
